A study of Mus musculus with 16 samples.

Results

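Azacitidine was compared with its vehicle in wild-type (WT) LSK cells, the lineage-negative, Sca1-positive, Kit-positive fraction of bone marrow that holds haematopoietic stem cells and the earliest progenitors. The comparison takes 7 of the 16 libraries of the study, 3 of WT cells after azacitidine and 4 of WT cells after 0.9% NaCl, chosen by their labels alone. Each deposited table lists 30141 mouse genes among 31342 features, and all 30141 were taken. The other 9 libraries are of cells that express human R882H DNMT3A beside the mouse protein, under the same treatments. Both WT groups carry mouse Dnmt3a +/+, and the labels give them the same protocol up to treatment. Donors received poly(I:C) at 15 µg per g on 3 days, an inducer of interferon that serves to switch on the Mx1-Cre recombinase, and their marrow was harvested 4 weeks later. The labels describe donors with and without Cre and do not say which kind the WT donors were, and they also give a second poly(I:C) schedule without saying which animals had it. Donor marrow was mixed 1:1 with marrow of WT competitors that carry another Ptprc (CD45) allele and transplanted. At 2 weeks after transplantation recipients began 2 weeks of azacitidine at 2.5 mg per kg or NaCl, with 5 days on and 2 days off. The labels call donors age-matched without an age, do not say how many animals stand behind a library, and do not state if the sorted cells were of donor origin only. The spread between libraries, and every p-value built on it, may therefore be partly technical.

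Azacitidine is a cytidine analogue. Nucleoside transporters such as Slc29a1 carry it into cells, uridine-cytidine kinases phosphorylate it, and part of it is built into DNA, where it traps DNA methyltransferases and lowers cytosine methylation as cells divide. In tumour cells the drug is known for waking silenced germline genes and endogenous retroviruses and for an interferon response to their RNA, and in marrow it is known for suppressing blood formation. LSK cells mature along priming programmes, in which genes of neutrophils and monocytes, megakaryocytes and erythrocytes, or lymphocytes are switched on before the cells commit.

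The 7 libraries held 39303293 to 45429603 counts. Kit stood at 429 to 1089.7 CPM (a gene's share of the library's counts, scaled by edgeR to the normalised library size), Cd34 at 983 to 1376 and Flt3 at 432 to 798. Ly6a, which encodes Sca1, stood at 30.6 to 152. Defining markers of cells that the sort removes were near 0: Cd3e of T cells reached at most 0.693 CPM, Ly6g of neutrophils 0.177, Cdh5 of endothelium 0.231 and Adgre1 of macrophages 1.70. Immunoglobulin genes nonetheless took 0.13 to 3.40% of gene counts with azacitidine and 0.459 to 5.46% with NaCl. Azacitidine replicate 1 stood apart in its repeat families, which took 10.1% of its counts against 2.97 to 5.35% in the other 6. On the first principal component of the 7 libraries (37.3% of the variance) azacitidine replicates 1 and 2 lay at -70.5 and -48.0, and NaCl replicates 1 and 2 at -12.0 and -36.9. Azacitidine replicate 3 lay at 31.0, with NaCl replicates 3 and 4 at 78.3 and 58.0. What the numbers mean is not stated, so differences are also given within numbers 1 and 2 (2 libraries against 2) and within the higher numbers (1 against 2), a split chosen after seeing the data.

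The first question was which genes differed between azacitidine and NaCl. No gene did so at an adjusted p under 0.05: edgeR's quasi-likelihood test called 0 of 18341 genes (0%), with a lowest adjusted p of 0.0656. At an unadjusted p under 0.05 stood 1104 genes (6.02%), of which 732 were higher with azacitidine (3.99%) and 372 lower (2.03%). In 539 genes (2.94%) all 3 azacitidine libraries lay above all 4 NaCl libraries, and in 512 (2.79%) all lay below. The median log2 difference over all genes tested was 0.01, with 51.8% above 0 and 48.1% below. Of the 732 higher genes, 503 had their highest value in azacitidine replicate 1, 177 in replicate 2 and 52 in replicate 3. Without replicate 1 the counts were 253 higher and 167 lower. Without azacitidine replicate 3 there were 816 lower genes, and 7 genes were called: Clec11a, Chst10, Robo3, Dok3, Cd200r3, Ifit3 and 4933406J09Rik. Without NaCl replicate 3 there were 401 higher and 214 lower genes and 1 call, Cd200r3. The counts were 474 higher without NaCl replicate 1 and 214 lower without NaCl replicate 4. DESeq2 called 46 of 18296 genes (0.251%), 34 higher and 12 lower, of which 34 had groups that do not overlap, and limma-voom called 0. With 3 libraries against 4, an exact two-sided permutation test of a single gene cannot go below 0.0571.

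**Figure D1:**
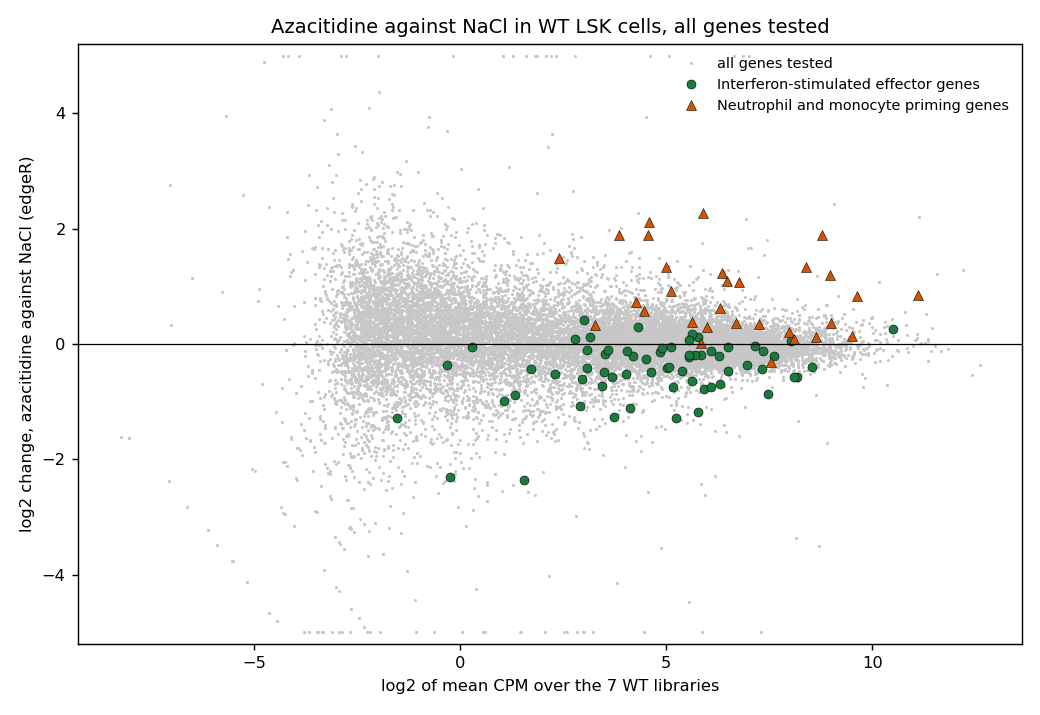
Each point is 1 of 18341 genes tested: the x axis is the log2 of its mean CPM over the 7 WT libraries and the y axis its log2 difference between azacitidine and NaCl in edgeR, with 56 genes beyond 5 on either side drawn at that limit and 3 genes at 0 in all 7 libraries not drawn. Green circles are the 64 interferon-stimulated effector genes, 55 of them below 0, and orange triangles the 30 neutrophil and monocyte priming genes, 29 of them above 0.

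The gene with the lowest p was 4933406J09Rik (ENSMUSG00000107666, GRCm38 chromosome 6, 134308951 to 134403415), which lies antisense to another gene and has no known role. In replicate order, as in all lists of values here, it stood at 3.33, 2.71 and 1.85 CPM with azacitidine, against 0.305, 0.480, 0.532 and 0.304 with NaCl. Every azacitidine library lay above every NaCl library, by a log2 difference of 2.69 (SE 0.39, edgeR adjusted p = 0.0656). Because the strand setting of the counting is not known, its reads cannot be told apart from those of a gene on the opposite strand. Cd200r3 (ENSMUSG00000036172, chromosome 16, 44943678 to 44981380) encodes a receptor that activates mast cells and basophils and belongs to a family of similar genes. It stood at 1.44, 1.49 and 0.898 CPM with azacitidine, against 0.0470, 0.0267, 0.203 and 0.0468 with NaCl. The groups were far apart on the log scale, at 3.94 (SE 0.60, edgeR adjusted p = 0.0656; 4.88 without NaCl replicate 3), but the level was low in both.

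Selp (ENSMUSG00000026580, chromosome 1, 164115264 to 164150026) encodes P-selectin, the adhesion molecule of activated platelets and endothelium that is also found in stem cells with a platelet bias. Its values were 138, 88.8 and 66.5 CPM with azacitidine, against 43.96, 23.3, 23.1 and 26.1 with NaCl. The lowest azacitidine library lay above the highest NaCl library, with a log2 difference of 1.75 (SE 0.36, edgeR adjusted p = 0.639). Lgals1, for the secreted lectin galectin-1, stood at 218, 313 and 92.1 CPM with azacitidine, against 75.6, 83.8, 53.7 and 48.2 with NaCl. Azacitidine replicate 3 was the nearest to the NaCl libraries here, and the log2 difference was 1.67 (SE 0.39). Clec11a encodes a secreted growth factor of haematopoietic and bone cells, and its values were 25.8, 42.8 and 14.4 CPM with azacitidine, against 11.95, 11.6, 6.73 and 6.96 with NaCl. Its log2 difference was 1.57 (SE 0.30, edgeR adjusted p = 0.564), and replicates 3 and 4 of NaCl were lower than replicates 1 and 2. Cyp27a1, the sterol hydroxylase that opens a route of bile acid synthesis, was even within the treated group, with 20.3, 22.2 and 19.9 CPM with azacitidine, against 7.02, 5.68, 10.8 and 9.70 with NaCl. Mgst2, a microsomal glutathione transferase, was even within both, with 37.3, 39.8 and 27.1 CPM with azacitidine, against 14.6, 14.5, 17.6 and 15.3 with NaCl. The log2 differences of these 2 genes were 1.33 (SE 0.32) and 1.17 (SE 0.28), neither past the threshold.

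A further gene with higher values in every treated library was Naip6, a sensor of bacterial proteins with near-identical family members (log2 1.40, SE 0.31). Naip6 was highest in azacitidine replicate 1, at 7.74 CPM against 3.09 and 4.16 in the other treated libraries and 1.52 to 2.39 with NaCl. The cAMP sensor Rapgef3 stood at 28.03 to 45.2 CPM with azacitidine and 13.2 to 25.3 with NaCl, and the exchange factor Mcf2l at 4.49 to 11.4 and 2.49 to 3.32. Fndc3b stood at 9.93 to 24.1 against 4.42 to 8.10 and Cc2d2b at 2.63 to 4.84 against 1.31 to 1.43, both highest in azacitidine replicate 1. The T cell receptor constant segment Tcrg-C1 stood at 11.9, 20.7 and 6.08 CPM with azacitidine, against 1.22, 3.92, 2.28 and 0.796 with NaCl. Rps4l, an annotated processed pseudogene of a ribosomal protein whose reads may belong to related copies, stood at 34.3 to 52.7 against 18.3 to 31.2.

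Among genes with lower values in every treated library, Rab3il1, an exchange factor of vesicle GTPases, had the lowest p. It stood at 16.2, 18.5 and 24.6 CPM with azacitidine, against 40.3, 36.9, 35.2 and 36.5 with NaCl. The NaCl libraries lay close together and the treated ones lower, with a log2 difference of -0.91 (SE 0.20, edgeR adjusted p = 0.639). Scube3, a secreted protein with EGF-like repeats, stood at 1.32, 0.595 and 0.744 CPM with azacitidine, against 2.65, 4.16, 6.10 and 8.99 with NaCl, a log2 difference of -2.62 (SE 0.65). For Mmp2, the gelatinase that cuts basement membrane collagen, the values were 6.21, 5.14 and 11.6 CPM with azacitidine, against 12.1, 19.5, 29.5 and 30.7 with NaCl. Its highest treated library, replicate 3, lay just under its lowest NaCl library, replicate 1. Serpinf1 encodes PEDF, a secreted serpin that inhibits blood vessel growth. Its level was 50.5 ± 23.6 (SD, n = 3) CPM with azacitidine and 153 ± 14.1 (SD, n = 4) with NaCl, with treated replicate 1 at 23.3 and the other treated libraries at 65.9 and 62.2. The log2 differences of Mmp2 and Serpinf1 were -1.58 (SE 0.45) and -1.60 (SE 0.49). The membrane protein gene Itm2a stood at 15.7 to 31.03 CPM against 42.1 to 54.5, the exchange factor Arhgef28 at 6.55 to 10.3 against 14.99 to 21.5, and the endothelial receptor gene Ecscr at 0.791 to 2.08 against 2.29 to 5.74. Gm11837 (ENSMUSG00000086587, chromosome 4, 14929908 to 14953030), likewise annotated as antisense, stood at 0.384, 0.433 and 1.00 CPM with azacitidine, against 1.69, 1.73, 1.54 and 2.55 with NaCl. Other differences with no overlap were those of St7 (log2 -0.53, SE 0.14), Casc4 (-0.73, SE 0.22), Zbtb8a (-0.66, SE 0.20), the immunoglobulin segment Ighv1-23 (-1.04, SE 0.44) and 9230116N13Rik (-0.49, SE 0.21).

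**Figure D2:**
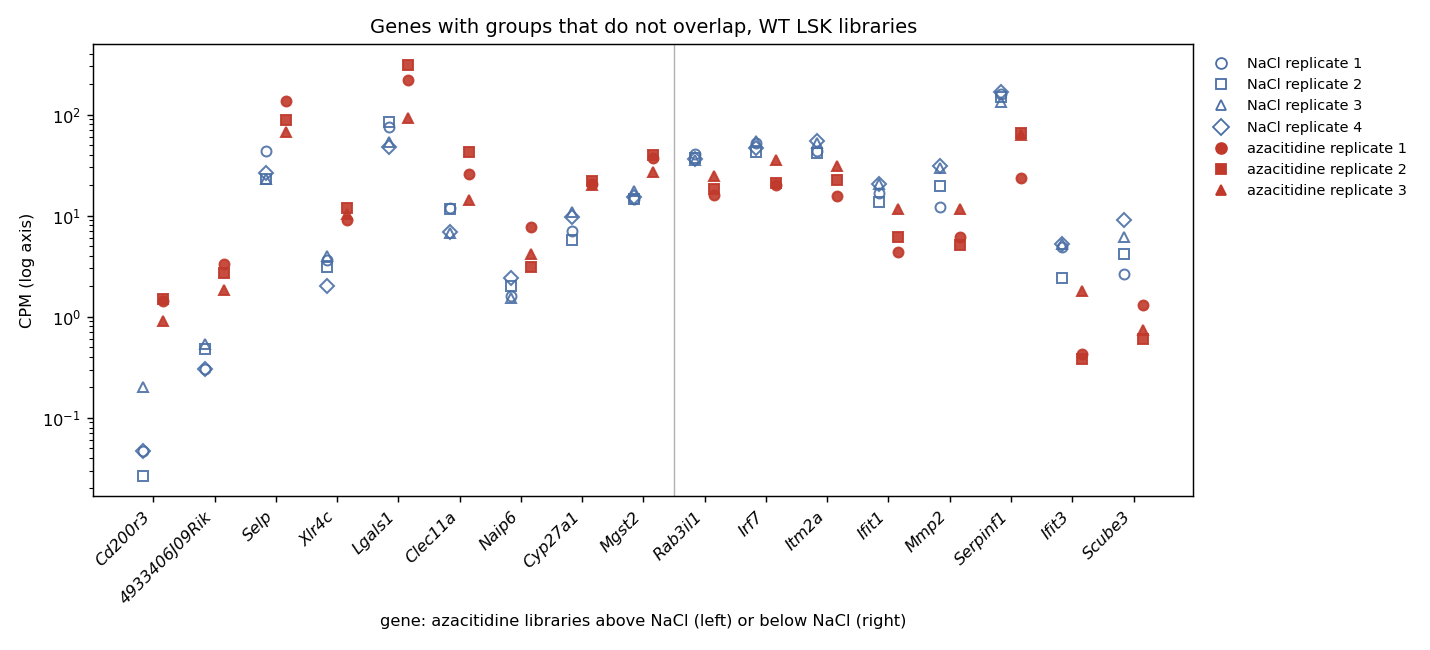
CPM on a log axis of 17 genes whose treated and control libraries do not overlap, with open blue symbols for the 4 NaCl libraries, filled red symbols for the 3 azacitidine libraries and 1 shape per replicate number. Filled symbols lie above the open ones in the left 9 genes and below them in the right 8, and azacitidine replicate 3, the filled triangle, is the treated value nearest to the controls in Cd200r3, Lgals1, Irf7, Ifit1, Ifit3 and Mmp2.

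The genes that type I interferon induces lay mostly on the lower side. Of 64 interferon-stimulated effector genes tested, 55 were lower with azacitidine and 9 higher, with a median log2 difference of -0.40 against 0.01 over all genes. At an unadjusted p under 0.05, 11 members were lower and 0 higher, and 7 members had treated libraries below all NaCl libraries, while over all genes 2.03% and 2.79% met these rules. None passed the adjusted threshold. In bulk RNA, fewer cells with an active programme and less RNA in each cell cannot be told apart. Ifit3 (ENSMUSG00000074896, chromosome 19, 34583531 to 34588731) belongs to the family of proteins that bind viral RNA and shares near-identical sequence with Ifit3b, so that reads may be split between them. Its values were 0.432, 0.379 and 1.80 CPM with azacitidine, against 4.93, 2.40, 5.24 and 5.27 with NaCl. NaCl replicate 2 was the lowest control and azacitidine replicate 3 the highest treated library, and the log2 difference was -2.36 (SE 0.54, edgeR adjusted p = 0.639). Without that treated library it was -3.46. Ifit1 (ENSMUSG00000034459, chromosome 19, 34640871 to 34650009) stood at 4.34, 6.17 and 11.7 CPM with azacitidine, against 16.7, 13.6, 20.6 and 20.6 with NaCl, a log2 difference of -1.27 (SE 0.42).

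Other effector genes with no overlap were the chaperone of receptors Rtp4 (35.3, 40.4 and 52.9 CPM with azacitidine, against 88.6, 65.2, 77.9 and 62.9 with NaCl) and Oasl1, a member of the oligoadenylate synthetase-like proteins (9.16, 6.33 and 8.16 CPM with azacitidine, against 15.8, 12.5, 12.8 and 11.5 with NaCl). Their log2 differences were -0.78 (SE 0.26) and -0.74 (SE 0.25). Lgals3bp, a secreted glycoprotein, stood at 188 to 259.7 CPM against 285 to 362. Ifitm1, a membrane protein that blocks viral entry and is also a gene of stem cells, stood at 196 to 233 against 281 to 362, and Epsti1 at 40.8 to 45.03 against 48.01 to 52.8. Members whose groups overlapped included Usp18, the protease that removes ISG15 and dampens receptor signalling (15.1 to 25.9 against 25.8 to 31.5), and Isg15 itself (8.06, 7.58 and 12.1 CPM with azacitidine, against 13.9, 16.5, 10.1 and 11.1 with NaCl). The GTPase gene Tgtp1 was spread widely among the controls, with 49.8, 36.8, 128 and 71.8 CPM with NaCl and 12.1, 20.1 and 62.2 with azacitidine.

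Upstream of the effectors, 13 of 18 ligands, receptors and transcription factors of the pathway were lower and 5 higher (median -0.16). At an unadjusted p under 0.05, 1 of them was lower and 0 higher, where 2.03% and 3.99% of all genes were. That gene was Irf7 (ENSMUSG00000025498, chromosome 7, 141262706 to 141266481), the transcription factor that amplifies interferon production. It stood at 20.2, 21.2 and 35.7 CPM with azacitidine, against 52.00, 42.2, 54.4 and 47.1 with NaCl. Treated replicates 1 and 2 were under the level of any control by a wide margin and replicate 3 by a narrow one, and the log2 difference was -0.93 (SE 0.25, edgeR adjusted p = 0.656). Of 23 nucleic acid sensing genes 18 were lower and 5 higher (median -0.27). By the same rule 0 of these were lower and 1 higher. In 1 of them all treated libraries lay below all NaCl libraries, as in 2.79% of all genes. Tmem173, the adaptor STING, had treated libraries at 137 to 152 CPM, under all NaCl libraries at 157 to 179.7, while the DNA sensor Ifi209 was on the higher side (log2 0.98, SE 0.44). The chemokine gene Cxcl10, which both interferon and NF-kB induce, stood at 0.168, 0 and 0.847 CPM with azacitidine, against 2.89, 2.05, 1.90 and 1.64 with NaCl, and its log2 difference was -2.64 (SE 0.80). That difference was -4.57 without azacitidine replicate 3 and -2.06 without replicate 2.

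The interferon values moved with the replicate numbers and with single libraries. The score of the effector list, its members' average log2 CPM, was 4.10, 3.98 and 4.81 with azacitidine and 4.71, 4.50, 5.06 and 4.95 with NaCl. Treated replicate 3 thus lay within the controls. NaCl replicates 1 and 2 scored lower than 3 and 4 by 0.40, and treated libraries lay below the NaCl libraries of like number by 0.56 in numbers 1 and 2 and by 0.20 in the higher ones. Without azacitidine replicate 3, 57 of 64 members were lower, 25 of them at an unadjusted p under 0.05. Without replicate 1 these counts were 55 and 6, and without replicate 2 they were 47 and 6. Over all genes, 816 of 18993 were lower by that rule without replicate 3 and 167 of 18803 without replicate 1. Without replicate 2 the number lay between these. Within numbers 1 and 2 the members lower were 52, and within the higher numbers 43. The score of the upstream list differed by -0.29 between NaCl replicates 1 and 2 and NaCl replicates 3 and 4, and by -0.15 between treatments. For the sensing list these differences were -0.60 and -0.33.

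**Figure D3:**
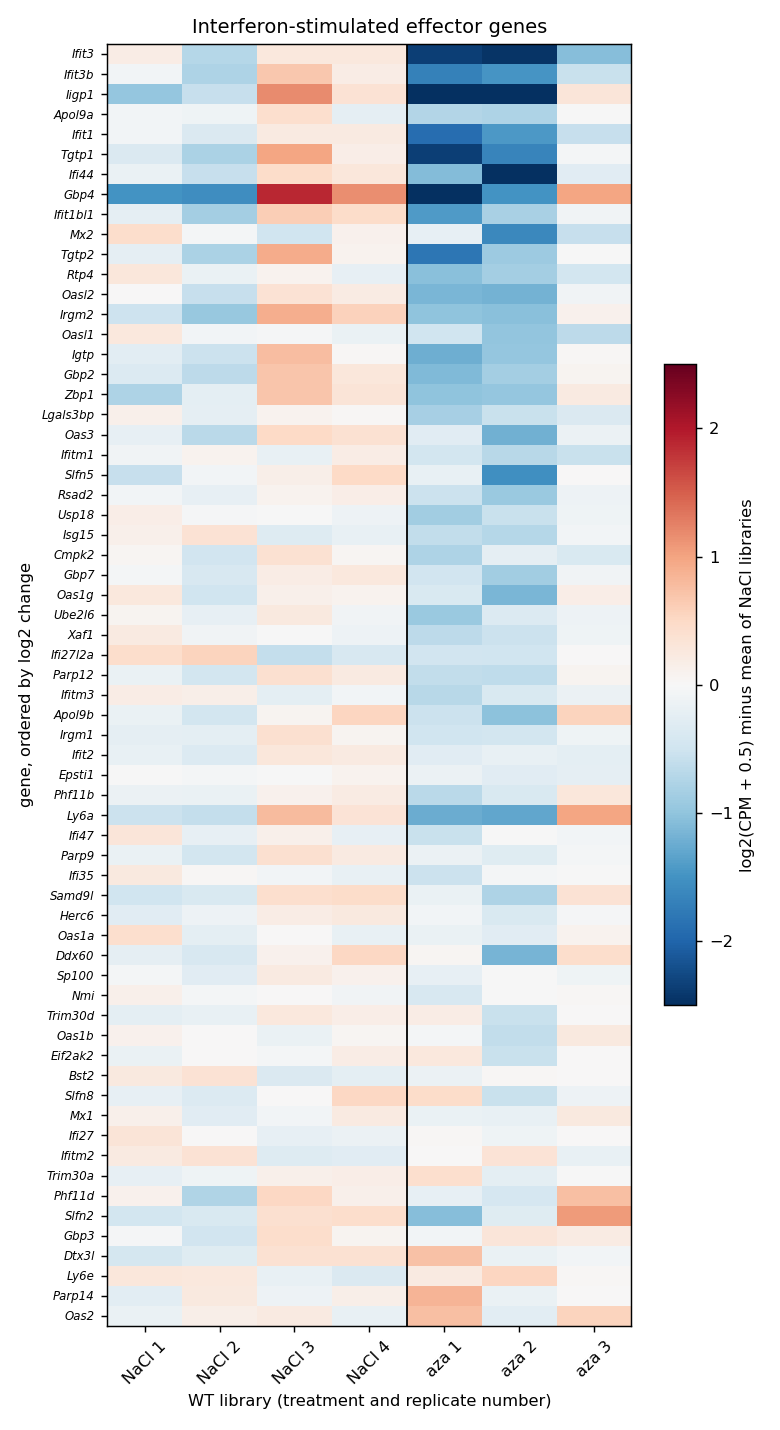
Rows are the 64 interferon-stimulated effector genes ordered by log2 difference, columns the 4 NaCl and 3 azacitidine libraries of WT cells, and the colour is log2(CPM + 0.5) minus the mean of the NaCl libraries, limited to 2.5. Cells below 0 (blue) number 53 in azacitidine replicate 1, 60 in replicate 2 and 35 in replicate 3.

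Promoter sequences are shown for 4 of these genes because a shared element is the textbook link between interferon and its targets, and because 3 of them had no overlap between groups while Isg15 did overlap. The element, the interferon-stimulated response element, was searched as 2 copies of GAAA with any 2 bases between them, on both strands, in RefSeq promoter windows of GRCm38.p6 (250 bases before to 50 after a start). Matches may overlap each other, as they do in Isg15. The 250 bases before the start are printed 5′ to 3′ in the direction of transcription, in lower case with matches in capitals.
Ifit3 (chr19:34583279-34583528, plus strand, matches beginning 156 and 122 bases before the start): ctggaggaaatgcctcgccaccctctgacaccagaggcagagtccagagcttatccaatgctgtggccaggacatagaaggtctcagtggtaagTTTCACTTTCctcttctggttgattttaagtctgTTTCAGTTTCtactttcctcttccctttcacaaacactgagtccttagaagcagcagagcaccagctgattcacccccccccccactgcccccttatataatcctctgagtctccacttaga
Ifit1 (chr19:34640639-34640888, plus strand, matches 104 and 85 bases before the start): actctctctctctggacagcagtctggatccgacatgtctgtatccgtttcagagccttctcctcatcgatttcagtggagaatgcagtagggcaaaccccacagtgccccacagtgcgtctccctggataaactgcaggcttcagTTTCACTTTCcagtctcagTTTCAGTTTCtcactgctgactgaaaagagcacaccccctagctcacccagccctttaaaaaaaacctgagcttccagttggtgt
Cxcl10 (chr5:92348890-92349139, minus strand, match 213 bases before the start): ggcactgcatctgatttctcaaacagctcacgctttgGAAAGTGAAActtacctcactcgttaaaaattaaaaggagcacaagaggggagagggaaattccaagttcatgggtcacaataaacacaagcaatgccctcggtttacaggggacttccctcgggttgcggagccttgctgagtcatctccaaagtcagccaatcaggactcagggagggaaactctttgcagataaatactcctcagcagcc
Isg15 (chr4:156200819-156201068, minus strand, matches 78, 72 and 66 bases before the start): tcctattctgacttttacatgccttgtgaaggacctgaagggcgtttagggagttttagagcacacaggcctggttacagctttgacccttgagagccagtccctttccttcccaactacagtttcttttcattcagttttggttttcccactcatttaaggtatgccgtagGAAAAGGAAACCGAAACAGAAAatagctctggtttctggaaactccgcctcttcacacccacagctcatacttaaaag
Of 49 effector genes with a promoter entry, 29 (59.2%) held the element, against 3.44% of all 32851 windows and 3.20% of the 11633 tested genes with an entry. Over the genome the 372 tested genes with a match had a median log2 difference of -0.03 and the 11261 without one -0.02. Lower genes at an unadjusted p under 0.05 made up 4.30% of those with a match and 2.22% of those without. Higher ones made up 3.23% and 3.75%. The 372 include the 29 effector genes. Ifit3 and Isg15 both hold matches, and their log2 differences were -2.36 and -0.48. Irf7 and Lgals3bp, also lower with no overlap, held 0 matches in the 250 bases before the start. Scube3, a lower gene outside these lists, held 1. A match describes letters in a window and shows no binding.

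Genes of neutrophil and monocyte priming leaned the other way. Of 30 tested, 29 were higher with azacitidine and 1 lower, with a median log2 difference of 0.78. At an unadjusted p under 0.05, 14 were higher and 0 lower, where the share over all genes is 3.99%, and none of the 30 had groups that do not overlap. Fcgr3, an activating Fc receptor of myeloid cells with close relatives, stood at 32.8, 83.7 and 12.4 CPM with azacitidine, against 7.91, 15.8, 8.18 and 7.77 with NaCl. Ms4a3, which marks granulocyte and monocyte progenitors, stood at 105, 197 and 21.4 CPM with azacitidine, against 21.8, 42.2, 10.9 and 14.9 with NaCl. In both genes treated replicate 2 was the highest and replicate 3 lay within the controls. The log2 differences were 2.11 (SE 0.54) and 2.26 (SE 0.70), and without replicate 2 they were 1.18 and 1.48.

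Genes of granule enzymes were again highest in treated replicate 2. Elane, neutrophil elastase, stood at 498, 1566 and 190.4 CPM with azacitidine, against 124, 430.2, 109 and 147 with NaCl, and the related protease gene Prtn3 at 820.2, 1122 and 279 CPM with azacitidine, against 374, 521, 186 and 216 with NaCl. Mpo, myeloperoxidase, stood at 2222, 5814 and 839.7 CPM with azacitidine, against 1979, 2242, 1316 and 1001 with NaCl. The transcription factor Cebpa, needed for granulocyte and monocyte fate, stood at 65.03, 59.7 and 17.7 CPM with azacitidine, against 29.3, 28.1, 21.7 and 21.1 with NaCl. Its partner in later granulocyte maturation, Cebpe, stood at 7.05, 14.6 and 3.57 CPM with azacitidine, against 1.78, 5.57, 2.46 and 2.11 with NaCl. Treated replicate 3 was the lowest of all 7 libraries for Cebpa. The lectin receptor Clec12a stood at 132, 233 and 97.9 CPM with azacitidine, against 80.6, 116, 54.4 and 41.5 with NaCl, Hp (haptoglobin) at 33.3, 72.8 and 15.8 CPM with azacitidine, against 5.61, 21.7, 6.81 and 9.95 with NaCl, and Igsf6 at 22.1, 45.4 and 6.98 CPM with azacitidine, against 4.09, 13.3, 4.33 and 5.11 with NaCl.

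The score of this list was 6.87, 7.56 and 6.02 with azacitidine and 6.03, 6.53, 5.86 and 5.74 with NaCl. Treated libraries were above NaCl libraries of like number by 0.93 in numbers 1 and 2 and by 0.22 in the higher ones. Without azacitidine replicate 2, 20 of 30 genes were higher, 1 of them at an unadjusted p under 0.05. Without replicate 3, 29 were higher and 19 met that rule, and without replicate 1 they were 29 and 11. Over all genes, 1057 of 19002 were higher by that rule without replicate 2 and 253 of 18803 without replicate 1. Without replicate 3 the number lay between these. Within the higher numbers 18 of 30 were higher. Genes of mature neutrophils, cells that the sort removes, were summed beside them: their 19 genes held 190 to 522 CPM with azacitidine and 115 to 259 with NaCl, with Ly6g at most 0.177. All 16 tested were higher (median 1.14), but the median was -0.24 without treated replicate 3, which held 81.5 CPM of S100a8 against 20.9 and 15.9 in the other treated libraries. Their part in the result was not tested.

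Stem cell genes split. Of 34 tested, 11 were higher and 23 lower (median -0.22), with 3 at an unadjusted p under 0.05 on either side, where 3.99% of all genes were higher and 2.03% lower. The median was -0.48 without azacitidine replicate 3 and -0.06 without NaCl replicate 4. Procr, the protein C receptor that marks long-term stem cells, stood at 9.97, 7.31 and 54.2 CPM with azacitidine, against 37.8, 35.4, 77.1 and 96.01 with NaCl. It was lower in NaCl replicates 1 and 2 than in 3 and 4, and treated replicate 3 lay within the controls. The log2 difference was -1.37 (SE 0.62), and -2.84 without that treated library. Slamf1 (CD150), a surface marker used to isolate stem cells, stood at 15.6, 13.5 and 16.3 CPM with azacitidine, against 10.6, 7.47, 8.43 and 11.1 with NaCl, with every treated library above every control and a log2 difference of 0.69 (SE 0.31). Vwf, the clotting protein of platelets and endothelium, was highest in azacitidine replicate 1, at 89.7 CPM against 18.95 to 32.5 with NaCl, and its log2 difference of 1.12 was 0.49 without that library. Cd34 stood at 983 to 1104 CPM with azacitidine and 1205 to 1376 with NaCl, a log2 difference of -0.29 (SE 0.29). The stem cell score differed by -0.87 between NaCl replicates 1 and 2 and NaCl replicates 3 and 4, and by -0.31 between treatments.

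Of 32 megakaryocyte and erythroid genes 21 were higher and 11 lower (median 0.18), with 8 higher and 2 lower at an unadjusted p under 0.05, where 3.99% and 2.03% of all genes were. The median was 0.06 without azacitidine replicate 1 and 0.32 without NaCl replicate 2. Besides Selp, platelet genes were among the higher ones. Pf4, the chemokine of platelet granules, stood at 220.3, 368 and 70.6 CPM with azacitidine, against 89.8, 108, 36.2 and 42.8 with NaCl. Treml1, a receptor of platelet granules, stood at 8.08 to 23.7 CPM against 3.47 to 10.4, and Itga2b, the platelet integrin, at 254 to 479.6 against 218 to 288. Car2, the carbonic anhydrase of red cells, was lower in all treated libraries, at 704, 974 and 1238 CPM against 1725, 1509, 1638 and 1469. Mast cell, basophil and eosinophil genes were higher in 14 of 18 members (median 0.41), 4 of them at an unadjusted p under 0.05, the rule that 3.99% of all genes met. The median was 0.15 without azacitidine replicate 2 and 0.87 without NaCl replicate 2. Besides Cd200r3 these were the basophil protease Mcpt8 (37.4, 89.2 and 28.8 CPM with azacitidine, against 27.2, 37.4, 9.49 and 6.84 with NaCl), the histamine-forming enzyme Hdc (11.3 to 56.3 against 7.59 to 18.3) and the Fc receptor chain Ms4a2 (5.93 to 12.6 against 0.796 to 6.13). Without azacitidine replicate 2 the log2 differences of Mcpt8, Hdc and Pf4 were 0.70, 0.57 and 1.06, against 1.36, 1.34 and 1.66 with it. The summed level of the 19 mast cell genes was 868 to 1201 CPM with azacitidine and 773 to 821 with NaCl, and the part of such cells was not tested.

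Lymphoid priming genes were lower in 18 of 24 members (median -0.28, and -0.10 without NaCl replicate 3). The chemokine receptor Ccr9, which guides progenitors to the thymus, stood at 2.01, 2.19 and 2.75 CPM with azacitidine, against 3.83, 6.40, 8.99 and 10.4 with NaCl, a log2 difference of -1.67 (SE 0.56). Of 24 T and NK cell genes 16 were higher and 8 lower (median 0.46, and 0 without treated replicate 3). Tcf7, a transcription factor of T cells that stem cells also express, stood at 31.1, 37.7 and 9.19 CPM with azacitidine, against 5.94, 8.53, 7.01 and 4.43 with NaCl. Its log2 difference was 2.00 (SE 0.60). The kinase gene Lck ran the other way, at 32.99 to 63.2 CPM against 67.4 to 84.7.

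**Figure D4:**
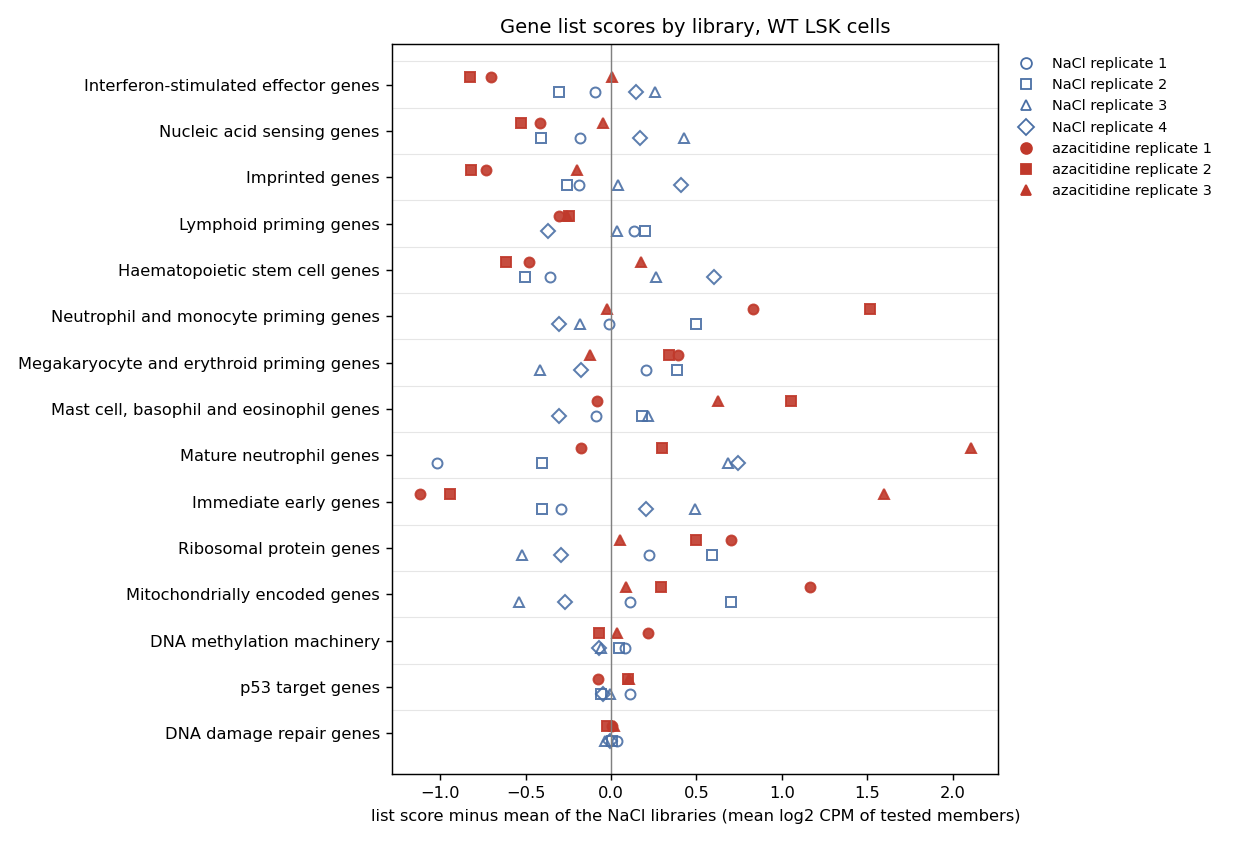
The x axis is the score of a gene list in a library (average log2 CPM over members) minus the mean of the 4 NaCl libraries, for 15 lists, with open blue symbols for NaCl, filled red symbols for azacitidine and 1 shape per replicate number. Azacitidine replicates 1 and 2 stand left of all controls for interferon-stimulated genes and right of all controls for neutrophil and monocyte genes, while replicate 3 lies among the controls in both.

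The target enzymes of the drug were measured next. Of 23 genes of the DNA methylation machinery 12 were higher and 11 lower (median 0.01). Dnmt1, which copies methylation after replication, stood at 241, 259 and 274 CPM with azacitidine, against 284, 229, 444 and 325 with NaCl. Its guide Uhrf1 stood at 176, 222 and 196 CPM with azacitidine, against 256, 192, 261 and 223 with NaCl. The de novo enzymes Dnmt3a and Dnmt3b stood at 146, 80.2 and 90.01 CPM with azacitidine, against 106, 97.2, 82.9 and 101 with NaCl, and at 113, 92.8 and 100.2 CPM with azacitidine, against 121, 97.9, 130.4 and 141 with NaCl. All 4 overlapped between treatments, with log2 differences of -0.31 (SE 0.34), -0.23 (SE 0.23), 0.12 (SE 0.20) and -0.27 (SE 0.24). Tet3, an enzyme that oxidises methylcytosine, reached 153 CPM in azacitidine replicate 1 and 38.1 and 39.4 in the other treated libraries, within the 19.2 to 48.9 of NaCl. Its log2 difference of 1.12 was 0.13 without that replicate. Tet2 overlapped, with 23.1 to 58.7 against 20.2 to 34.7.

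Genes listed as silenced by methylation outside the germ line gave a mixed picture. Not all were silent here: the Xlr4 genes and Ddx4, given below, stood at 1.99 CPM or more in every NaCl library. Of 40 listed 26 were in the files and 13 passed the filter on low counts, 8 higher and 5 lower (median 0.11). Because the filter keeps genes that are high in some group, these are not all members. In 3 of them, all of the X-linked Xlr4 family, every treated library lay above every control, as in 2.94% of all genes. Xlr4c (ENSMUSG00000031362, chromosome X, 73233688 to 73243130), of the lymphocyte-regulated family of nuclear proteins, stood at 8.97, 11.8 and 10.4 CPM with azacitidine, against 3.64, 3.12, 4.00 and 1.99 with NaCl. The neighbours Xlr4b and Xlr4a stood at 16.7, 23.1 and 19.1 CPM with azacitidine, against 13.9, 12.8, 12.6 and 10.98 with NaCl, and at 35.4, 50.9 and 33.1 CPM with azacitidine, against 23.5, 28.99, 18.9 and 14.3 with NaCl. The log2 differences were 1.70 (SE 0.42), 0.64 (SE 0.18) and 0.89 (SE 0.27), with an edgeR adjusted p = 0.639 for Xlr4c. That difference was 1.53 to 1.83 without each of the 7 libraries in turn. The promoter of Xlr4c is shown with its CpG sites, the letters that methylation marks, in capitals, 5′ to 3′ from RefSeq, GRCm38.p6.
Xlr4c (chrX:73243131-73243380, minus strand, 5 CpG in the 250 bases before the start): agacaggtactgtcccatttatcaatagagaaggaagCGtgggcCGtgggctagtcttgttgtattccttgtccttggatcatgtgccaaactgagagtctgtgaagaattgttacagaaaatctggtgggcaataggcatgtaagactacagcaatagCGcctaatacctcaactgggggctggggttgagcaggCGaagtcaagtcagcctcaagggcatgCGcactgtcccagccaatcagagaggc
Aligned without gaps, it matched Xlr4b at 225 of 227 bases, and Xlr4a matched Xlr4b at 239 of 243. The 3 genes are near copies, so the authors' counting may have split their reads, and they do not make 3 independent observations. Of other genes of the list, Piwil2 was at a low level, with 0.551 to 1.03 CPM against 1.07 to 2.10. The helicase gene Ddx4 stood at 10.1 to 16.2 against 10.2 to 18.6, and its groups overlapped.

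Imprinted genes, of which methylation silences 1 parental copy, were lower in 20 of 25 members tested (median -0.38), with 5 lower at an unadjusted p under 0.05 and 4 with no overlap, rules that 2.03% and 2.79% of all genes met. The median was -0.55 without azacitidine replicate 3. Snrpn was near 0 in all libraries, with 0.0959, 0.0812 and 0.462 CPM with azacitidine, against 0.892, 0.480, 1.24 and 1.99 with NaCl. The Notch-like ligand Dlk1 stood at 0.334 to 0.406 against 0.587 to 1.64, and Mkrn3 at 3.52 to 5.22 against 5.63 to 7.59. The log2 difference of Snrpn was -2.42, and -3.66 without azacitidine replicate 3. The growth regulators Phlda2 and Igf2r overlapped. Over the genome, promoters were divided into 3 groups of near-equal size by the ratio of observed to expected CpG. The median log2 difference was -0.02 in the group with the fewest CpG, -0.04 in the middle one and -0.01 in the group with the most. Genes higher at an unadjusted p under 0.05 made up 4.95%, 2.96% and 3.28% of these groups, and lower ones 3.33%, 2.37% and 1.16%. The lowest group also held the weakest genes, with a median of 5.65 CPM in the NaCl libraries against 33.5 and 44.9.

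Uptake and metabolism of the drug involved 24 tested genes, 8 higher and 16 lower (median -0.08). Slc29a1, the equilibrative transporter that carries azacitidine, stood at 92.3, 118 and 130.3 CPM with azacitidine, against 192, 174, 170.3 and 147 with NaCl. All treated libraries lay below all controls, with a log2 difference of -0.59 (SE 0.25, edgeR adjusted p = 0.825). Dctd, the deoxycytidylate deaminase, had the same order, at 56.1 to 71.9 against 74.9 to 88.2. The kinase Uck2 overlapped, with 107 to 139.8 against 106 to 135, and Cda, the deaminase that inactivates the drug, was at most 0.288 CPM in any library.

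Responses to DNA damage and to arrest of the cell cycle were looked for in lists of 32 p53 targets, 37 repair genes, 34 replication genes and 30 cell division genes. Their median log2 differences were -0.05, -0.10, -0.21 and 0.11, and 0 members passed the adjusted threshold. Among p53 targets, the RNA-binding protein gene Zmat3 stood at 2.28, 2.17 and 2.00 CPM with azacitidine, against 1.08, 1.09, 0.962 and 1.15 with NaCl, and the antiproliferative gene Btg2 at 91.2, 77.1 and 76.8 CPM with azacitidine, against 59.5, 66.2, 49.7 and 32.97 with NaCl. Neither overlapped between groups. Cdkn1a, the p21 inhibitor of the cell cycle, did, with 33.1, 44.8 and 25.9 CPM with azacitidine, against 31.2, 28.99, 14.9 and 11.2 with NaCl. Mdc1, Prkdc and Atm of the break response were high in azacitidine replicate 1 alone, at 37.3, 58.1 and 47.8 CPM, against 12.9, 17.5 and 16.3 in replicate 2. Their log2 differences of 0.92, 0.80 and 0.76 were 0.22, 0.15 and 0.09 without replicate 1. Of the replication genes 29 were lower and 5 higher, with 0 at an unadjusted p under 0.05, and without treated replicate 1 these counts were 20 and 14. The proliferation marker Mki67 overlapped, with 251, 158 and 147 CPM with azacitidine, against 167, 206, 80.6 and 104 with NaCl. Of 24 apoptosis regulators 15 were higher (median 0.18), and Mcl1, which keeps stem cells alive, stood at 272, 211 and 251 CPM with azacitidine, against 163, 164, 187 and 199.9 with NaCl, with a log2 difference of 0.45 (SE 0.14). Ddit4, a stress-induced inhibitor of mTOR, stood at 15.2 to 40.9 against 12.4 to 14.9.

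Some lists followed single libraries or the replicate numbers more than the treatment. Immediate early genes, which a stimulus switches on within minutes, were higher in 20 of 23 members (median 0.45), but lower in 20 of 23 without azacitidine replicate 3. In that library Fos reached 653 CPM, Fosb 27.1 and Dusp1 614, against 1.61, 0.216 and 16.6 in replicate 1. Ribosomal protein genes were higher in 81 of 82 members (median 0.39) and mitochondrially encoded genes in 15 of 15 (median 0.57, and 0.22 without azacitidine replicate 1), with 0 in either list at an unadjusted p under 0.05. The ribosomal score of the NaCl libraries alone ran from 7.44 to 8.55, a span that included treated replicates 2 and 3 at 8.46 and 8.01, with replicate 1 at 8.66.

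Genes that were detected under a single treatment were few and weak. Of the 30141 genes, 43 were at 0 counts in all NaCl libraries and above 0 in all treated ones, 23 were the reverse, and 0 of either kind reached 10 counts in every library where they were found. Among the 23, chosen after their values were seen, Ptprr, a receptor phosphatase, held 19, 14, 17 and 9 counts with NaCl. Enpp2, which encodes autotaxin, the enzyme that makes lysophosphatidic acid, held 9, 26, 51 and 49. A count of 0 allows up to 3 counts in a library and covers counting error only, since amplified reads carry no molecular identifiers.

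The WT response was set beside that of R882H cells, whose controls are separate libraries. The difference between responses passed the adjusted threshold in 0 of 18341 genes (0%) in edgeR, with 1114 (6.07%) at an unadjusted p under 0.05, and in 12 genes in DESeq2. The log2 differences of 4933406J09Rik, Clec11a and Gm11837 in R882H cells were 2.26, 1.35 and -2.32, on the side of those in WT cells. Those of Irf7, Ms4a3 and Fcgr3 were -0.0019, 0.031 and 0.18. The median over the interferon effector genes was -0.03 in R882H and -0.40 in WT, and over neutrophil and monocyte genes 0.17 and 0.78. No test of these medians was made, and none of their members differed between genotypes past the adjusted threshold.

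Repeat families, counted in the same libraries, are given for the retroviral sequences that the drug is known to derepress. Library sizes came from the gene counts, so a library with a larger share of repeats raises most families together. Of 1024 families tested 992 (96.9%) were higher with azacitidine and 32 (3.12%) lower, 179 (17.5%) and 1 (0.0977%) at an unadjusted p under 0.05, and edgeR called 0 (0%). The median log2 difference was 0.55 over all families, 0.51 for IAP (intracisternal A particle) names and 0.52 for other LTR retrovirus names. It was similar in classes that are not retroviral, at 0.61 for L1 and 0.50 for SINE names. Azacitidine replicate 1, the library with 10.1% of its counts in repeats, held the most in all 7 classes by name, for example 6508 CPM of L1 against 2149 and 3876 in the other treated libraries and 1923 to 3826 with NaCl. Its rRNA families held 36811 CPM against 4183 to 11520 in the other 6. The internal part of the retrovirus MMERVK10D3 had no overlap, with 21.2, 14.4 and 9.03 CPM with azacitidine and 4.63, 7.47, 4.03 and 4.10 with NaCl. Its log2 difference was 1.56 (SE 0.35, edgeR adjusted p = 0.0673). IAP1-MM, an intracisternal A particle, stood at 41.0, 64.6 and 30.8 against 22.7, 22.3, 18.0 and 18.2. Without azacitidine replicate 2 edgeR called 563 families, and without replicate 1 it called 0.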

How the data were processed

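RNA of sorted LSK cells was sequenced after amplification with a low-input kit, with a minimum RIN of 8, per the labels' protocols. The authors deposited unnormalised read counts of genes and repeat families. HISAT2 2.0.5, featureCounts 1.6.2, edgeR 3.26.6 and GRCm38 (mm10) are named in the submitters' processing notes, and strand and multi-mapping settings are not given in the sources used here. A length column of the deposited files, in bases, was read only to check them. Gene symbols and positions came from GENCODE vM21 for 30100 of 30141 identifiers, promoters from RefSeq (GRCm38.p6).

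Libraries were grouped by their titles. Genes kept by filterByExpr (18341) were fitted with edgeR 4.0.16 (R 4.3.3, TMM, quasi-likelihood) on all 16 libraries with 1 coefficient per group, for a shared spread (biological coefficient of variation 40.7%). P-values were adjusted by Benjamini-Hochberg over all genes tested. Repeat families were fitted separately with the library sizes and TMM factors of the genes, and adjusted over the families tested. DESeq2 1.42.0, limma-voom 3.58.1 and other settings served as alternatives, and the scripts were tested on simulated data. No 2 WT libraries of the same treatment agreed within sampling noise. Scores are mean log2 CPM (prior count 2). Members, lists and tests were chosen with earlier results of these data known. Named genes are up to 12 per direction with the lowest p and no overlap at a mean log2 CPM of 1 or more, up to 2 gene models per direction, up to 3 members of each list at an unadjusted p under 0.05, and a fixed set; further list members are shown to describe a list. Some genes that the rule names are not reported here.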

Additional observations from a re-analysis of the deposited data

Results flagged for a closer look

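In 6 of the named genes 1 of the 4 WT libraries with NaCl lay far from the other 3. Chance alone sets apart a library in about 1 of 20 such groups, and 93 named genes were looked at. NaCl replicate 2 was apart in 3 of them: it held 2.40 CPM of Ifit3 against 4.93 to 5.27 in the other controls, 15.8 CPM of the Fc receptor gene Fcgr3 against 7.77 to 8.18, and 8.27 CPM of Relb, a subunit of NF-kB, against 17.0 to 19.01. NaCl replicate 3 was apart in 2: it held 0.203 CPM of Cd200r3 against 0.0267 to 0.0470 and 20.2 CPM of Tet2 against 34.1 to 34.7. NaCl replicate 4 held 3.16 CPM of Ifi209, a DNA sensor, against 7.63 to 8.30. For Ifit3, Fcgr3, Cd200r3 and Relb the value set apart lay toward the azacitidine libraries.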

How the results depend on the processing

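Counts of called genes, 0 in edgeR, became 46 with DESeq2, 8 with a replicate block in the WT libraries alone (Selp and 7 immunoglobulin segments), 4 within numbers 1 and 2 (Ccl9, Rapgef3, Chst10 and Lgals1), 2 within the higher numbers (Gm42031 and Gm35279), and 0 to 7 without 1 library in turn. They stayed at 0 with the other size factors, no filter or a stricter filter, limma-voom, WT libraries alone and a term for numbers 1 and 2. Genes higher at an unadjusted p under 0.05 were 475 with the replicate block in WT libraries alone, 319 within the higher numbers and 253 to 1057 without 1 library; lower ones were 167 to 816. The genotype difference gave 12 calls with DESeq2 and 0 without any 1 library. Repeat families called were 1 with no filter and 0 to 563 without 1 library. Numbers were not taken as pairs: deviations of same-numbered WT libraries correlated at 0.05, 0.07 and 0.34, and azacitidine replicates 1 and 2 correlated better with NaCl replicates 2 and 1, at 0.29 and 0.24. A replicate block on all libraries gave 0 calls. Among named genes, log2 differences that turned sign ran, without 1 library in turn, from -0.19 to 0.28 for Dnmt3a, -0.56 to 0.97 for Cda, -1.41 to 0.15 for Ly6a (0.14 without azacitidine replicate 1, 0.10 without NaCl replicate 3), -0.030 to 0.16 for Uck2, -0.10 to 1.29 for Mpo and -2.26 to 4.00 for Fosb. Azacitidine replicate 1 turned Dnmt3a, Cda, Ly6a and Uck2 when left out, replicate 2 Mpo and Ly6a, and replicate 3 Fosb. Within numbers 1 and 2, Fosb was -2.11 and Kit 0.24. Within the higher numbers, Isg15 was 0.19, Mpo -0.46, Dnmt3a -0.032, Cda -2.11, Ly6a 0.41 and Uck2 -0.24. Where a fit left 1 library in a group, that library was assumed to vary like the others. The cause was not tested in any of these. The interferon median kept its sign in 19 of 19 alternatives (-0.62 to -0.26), as did the neutrophil and monocyte median (0.24 to 0.99). Other lists did so too, such as stem cell (-0.48 to -0.01), ribosomal protein (0.20 to 0.60) and mitochondrially encoded genes (0.22 to 0.93). The alternatives reuse the same libraries and are not independent.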

Other observations

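Further lists gave small or mixed values. Of 24 inflammatory NF-kB genes 8 were higher and 16 lower (median -0.18, and -0.54 without azacitidine replicate 3), and Il1b, the cytokine interleukin-1 beta, stood at 0.959, 2.65 and 0.642 CPM with azacitidine, against 0.188, 0.640, 0.481 and 0.0703 with NaCl, with no overlap between groups. Antigen presentation genes were higher in 10 and lower in 14 of 24 (median -0.05), and Ciita, the activator of class II genes, stood at 0.839 to 6.72 CPM with azacitidine against 3.88 to 10.8 with NaCl. Of 24 cholesterol synthesis genes 10 were higher and 14 lower (median -0.05), with the epoxidase gene Sqle at 34.3, 48.1 and 56.1 against 71.7, 61.7, 70.3 and 62.8. Glycolysis and hypoxia genes were higher in 9 of 26 (median -0.10), haem and iron genes in 8 of 19 (-0.08) and ribosome biogenesis genes in 11 of 30 (-0.06). Integrated stress response genes were higher in 9 of 23 (-0.06), with the serine synthesis gene Phgdh at 321, 478 and 453 against 628, 504, 535 and 498. Leaving out 1 library in turn moved the sign of the antigen presentation, cholesterol, glycolysis, haem, stress response, ribosome biogenesis and chromatin repressor medians. They ran between -0.26 and 0.06. Among lists given earlier, the medians of DNA methylation machinery, germline, p53 target and cell division genes also changed sign. These ran between -0.11 and 0.51. Of 21 homing and niche receptor genes 9 were higher (-0.13). Chromatin repressors were higher in 12 of 23 (0.01) and retroelement-derived genes in 6 of 14 (-0.02). Macrophage and dendritic cell genes were lower in 14 of 21 (-0.22, and -0.42 without azacitidine replicate 3), mature B and plasma cell genes in 15 of 21 (-0.20, but -1.41 without azacitidine replicate 3 and 0.51 without NaCl replicate 3) and immunoglobulin genes in 103 of 182 tested (-0.25, but -1.63 without azacitidine replicate 3 and 0.42 without NaCl replicate 3). Endothelial and stromal genes were higher in 7 of 11 tested (0.60, but 0.0074 without azacitidine replicate 1 and 0.92 without replicate 2), and their 18 genes held 165 to 263 CPM in all with azacitidine and 179 to 245 with NaCl.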
